A study of Mus musculus with 2 samples.

Results

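The methyl mark m1A sits on tRNA and on some mitochondrial RNA, and a small set of enzymes places it (writers) or takes it off (erasers). The 7 genes described here were chosen by name: the tRNA methyltransferase subunits Trmt6 and Trmt61a, the mitochondrial methyltransferase genes Trmt61b, Trmt10c and Hsd17b10, and the demethylases Alkbh1 and Alkbh3. Of these, 6 were found among the 27998 genes of both libraries, and Trmt61b was not analysed here. The data are single-cell RNA-seq of LSK bone marrow cells (lineage-negative, positive for Sca-1 and c-Kit), a sort that collects haematopoietic stem cells and progenitors, from 3-month-old mice. The labels give 1 Trmt6 WT library with the genotype Trmt6fl/fl and 1 Trmt6 cKO library with the genotype Trmt6fl/fl, MX1-cre. Mx1-Cre is an interferon-inducible recombinase, so it is not restricted to blood cells. According to the methods and experimental scheme of the study, the animals received pIpC to switch it on and the controls also carried Mx1-Cre, but the label of the WT library names no Cre. Genotype, library and, by the labels, the recombinase cannot be told apart, and the number of animals pooled per library is not given in the sources used here.

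TRMT6 and TRMT61A form 1 enzyme, in which TRMT61A binds the methyl donor and TRMT6 is needed for tRNA binding. In mitochondria, TRMT10C and HSD17B10 (also called MRPP1 and MRPP2) form a complex that methylates mitochondrial tRNA and joins the protein PRORP to cut tRNA ends, while TRMT61B methylates other positions. ALKBH1 and ALKBH3 are iron-dependent dioxygenases that can remove m1A from RNA, ALKBH3 also from damaged DNA.

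The sequences below are exon 2 of Trmt6 and the upstream region of the gene with the highest ratio between the libraries. Exon 2 is taken here as the part that the conditional allele removes, although the text of the study does not name the exon. Exon 2 of Trmt6 lies at chr2:132812048-132812175 (GRCm38, GENCODE M21, minus strand). All of its 128 bases are coding, and its length leaves a remainder of 2 when divided by 3. The UMIs of a 3′ library come mostly from the last exon, which is exon 11 of Trmt6 at chr2:132804207-132805612, so the Trmt6 level does not show whether exon 2 was removed.
Trmt6 exon 2: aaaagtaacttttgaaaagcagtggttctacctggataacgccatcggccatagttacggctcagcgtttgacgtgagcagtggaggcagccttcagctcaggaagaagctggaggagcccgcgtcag
The 250 bases before the start of Trmt61a lie at chr12:111677855-111678104 (RefSeq, GRCm38.p6, plus strand), and capitals mark the cAMP response element letters TGACGTCA.
Trmt61a upstream: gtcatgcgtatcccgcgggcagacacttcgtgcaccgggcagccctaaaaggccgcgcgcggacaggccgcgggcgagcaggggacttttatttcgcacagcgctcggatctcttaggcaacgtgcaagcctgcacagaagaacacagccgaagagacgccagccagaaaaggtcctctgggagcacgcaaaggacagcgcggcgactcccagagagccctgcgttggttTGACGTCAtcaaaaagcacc

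Promoter windows from 250 bases before to 50 bases after the start were matched for 6 of the 7 genes, with Trmt6 the exception. They were searched on both strands for TGACGTCA, for the C/EBP-ATF response element TGATGNAAN and for the ETS core CCGGAAG, motifs chosen after the sequences were seen. Trmt61a held TGACGTCA once, its first base 20 bases before the start, and none of the other windows held it. Of 27025 genes with such windows, 2.03% held these letters in at least 1 window. CCGGAAG occurred in the windows of Trmt61a, Trmt10c, Alkbh1 and Alkbh3 against 9.93% of all genes, and TGATGNAAN in none of the 6 genes against 4.50%. A match describes the letters in the window and not a bound site.

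The kept cells numbered 8152 in WT, with 41430831 UMIs (unique molecular identifiers, each standing for 1 captured RNA molecule), and 8485 in cKO, with 86879726 UMIs. The median cell held 4109 UMIs in WT and 9995 in cKO, so the cKO library was the deeper one. The libraries shared 24 barcodes. Kit stood at 64.0 counts per 1000000 UMIs (CPM) in WT and 21.6 CPM in cKO, and Ly6a, which encodes Sca-1, at 34.9 and 142 CPM, so both sort markers were present in both libraries. Markers of neutrophils, cells outside the sort, summed to 5336 CPM in WT against 1.98 CPM in cKO, and no gene of that list was at 0 in either library. Their part in the results was not tested, although the 6 log2 ratios moved by at most a few hundredths when the 82 WT cells with 1% or more of their UMIs from that list were left out, a choice made after seeing the data. With 1 library per genotype there is no replicate check and no test across samples. Each interval is a 95% interval and covers no error but that of counting, and fewer molecules per cell cannot be told apart from fewer expressing cells in a summed level.

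Over all kept cells, Trmt61a was the member with the highest ratio and Alkbh1 the one with the lowest. Relative to WT, the cKO library held more Trmt61a, Hsd17b10 and Alkbh3 and less Trmt6 and Alkbh1 in CPM, and Trmt10c differed by less than its counting error. Of the 6 genes, 1 was higher by a log2 ratio of 0.5 or more (Trmt61a), where 8.86% of 9154 genes at 5 CPM or more were, and 1 was lower by as much (Alkbh1), where 17.7% were. At a log2 ratio of 1 or more, the counts were 1 higher (2.92% of all genes) and 0 lower (5.27%). The median log2 ratio was 0.24 over the 6 genes and -0.07 over all genes, and the 3 other scalings of whole libraries raised every ratio by 0.07 to 0.10. Scaling each cell before averaging lowered all 6, and took Trmt10c from 0.05 to -0.16. With TMM scaling 3 of the 6 genes were higher by 0.5 or more, where 12.6% of all genes were, and 0 lower, where 13.2% were, since Hsd17b10 and Alkbh3 then passed 0.5 and Alkbh1 no longer reached -0.5.

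**Figure D1:**
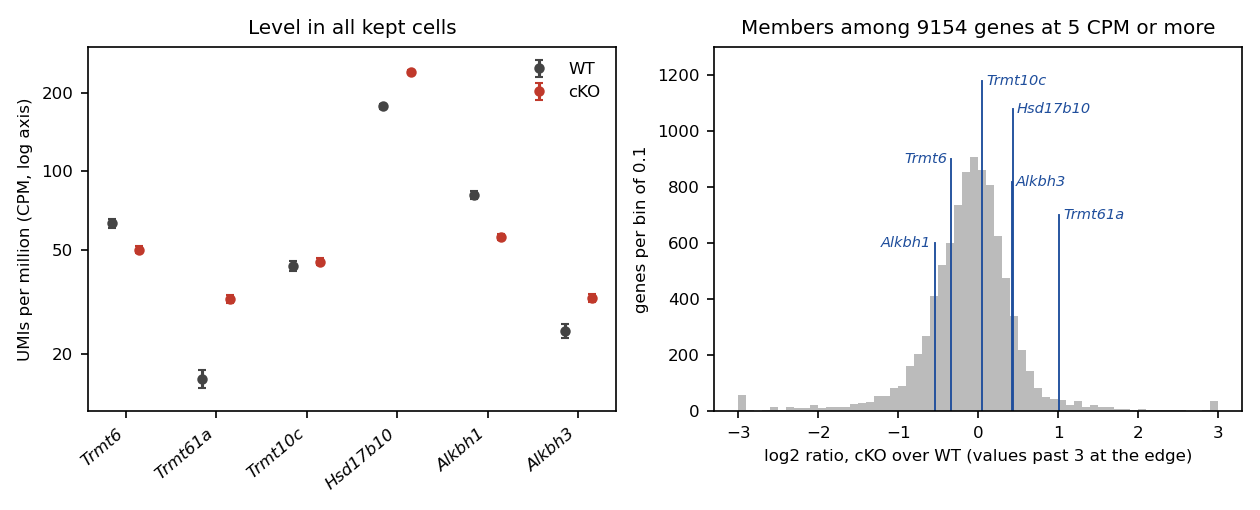
Left, CPM (log axis) of each gene over all kept cells, with bars for the 95% Poisson interval, in WT (grey) and cKO (red). Right, the number of genes per log2 ratio of cKO over WT, with lines (of arbitrary height) at the 6 genes, where Trmt61a stands at 1.02 in the right tail and Alkbh1 at -0.54.

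Trmt6, the targeted gene, had 2617 UMIs in WT and 4352 in cKO. It stood at 63.2 CPM (60.8 to 65.6) in WT against 50.1 CPM (48.6 to 51.6) in cKO, giving a log2 ratio of -0.33 (-0.40 to -0.26). The cKO level was thus 0.793 of the WT level, at percentile 27.5 of all genes, and the Trmt6 transcript was counted in the library labelled cKO.

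Trmt61a, the catalytic subunit of the same enzyme, went the other way. It had 663 UMIs in WT and 2815 in cKO, or 16 CPM (14.8 to 17.3) and 32.4 CPM (31.2 to 33.6). The log2 ratio was 1.02 (0.90 to 1.14), at percentile 97.1. WT cells therefore held 0.253 Trmt61a UMIs per Trmt6 UMI and cKO cells 0.647, and this quotient, which no scaling of the libraries moves, differed by 1.35 on the log2 scale (normal-approximation interval 1.21 to 1.49).

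In the mitochondrial complex the subunits did not move alike. Trmt10c, the methyltransferase, stood at 43.4 CPM (41.4 to 45.4) in WT against 45.0 CPM (43.6 to 46.4) in cKO, and its log2 ratio of 0.05 (-0.03 to 0.13) spanned 0. Hsd17b10, its partner and also a mitochondrial dehydrogenase, stood at 178 CPM (174 to 182) and 240.5 CPM (237 to 244), a log2 ratio of 0.44 (0.40 to 0.47). Hsd17b10 UMIs per Trmt10c UMI went from 4.10 to 5.35, a log2 difference of 0.38 (0.29 to 0.47). By UMIs per cell this difference was 0.16 (-0.38 to 0.70) at 2000 to 4000, 0.62 (0.45 to 0.80) at 4000 to 8000 and 0.24 (0.07 to 0.42) at 8000 to 16000.

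The erasers lay on opposite sides of 0. Alkbh1, which acts on tRNA in the cytoplasm and in mitochondria, stood at 81.2 CPM (78.5 to 84.0) in WT against 55.9 CPM (54.3 to 57.5) in cKO, giving a log2 ratio of -0.54 (-0.60 to -0.48). Alkbh3 stood at 24.3 CPM (22.9 to 25.9) and 32.7 CPM (31.5 to 33.9), a log2 ratio of 0.43 (0.32 to 0.53). Alkbh3 UMIs per Alkbh1 UMI rose from 0.300 to 0.585 between the libraries, by 0.96 on the log2 scale (0.84 to 1.09). The Alkbh3 count is less certain, because the same-strand gene Gm27027 covers its last exon and reads that fit both genes may have been dropped. Gm27027 itself was listed at 0 in both libraries.

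Since the depth per cell differed, cells within the same range of UMIs were compared. The mean depth still differed within the ranges, at 3007, 5532 and 10675 UMIs per WT cell against 3235, 6374 and 11299 UMIs per cKO cell. In cells of 4000 to 8000 UMIs (3106 WT and 2213 cKO cells), Trmt6 stood at 64.0 CPM in WT against 34.4 CPM in cKO, and its log2 ratio was -0.90 (-1.05 to -0.74), further from 0 than over all cells. Trmt61a stood at 15.1 and 21.6 CPM there, and its ratio was 0.51 (0.27 to 0.76), nearer to 0. In cells of 8000 to 16000 UMIs (1028 WT and 5309 cKO cells) the ratios were -0.48 (-0.59 to -0.36) for Trmt6 and 0.87 (0.66 to 1.09) for Trmt61a. The direction of both subunits was the same in these depth classes, but the sizes were not, and the part of depth in the ratios was not tested. In the shallowest class, 2000 to 4000 UMIs, with 216 cKO cells, the intervals of both genes spanned 0.

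The ratios of the mitochondrial genes took both signs over the depth classes, although the negative ones had intervals that spanned 0. The WT level of Trmt10c was 58.2 CPM in the shallowest class, 41.0 CPM in the middle and 33.2 CPM in the deepest, and the cKO level was 50.1, 41.5 and 45.4 CPM. The log2 ratio was accordingly -0.20 (-0.75 to 0.27), 0.02 (-0.15 to 0.18) and 0.45 (0.30 to 0.62). Hsd17b10 had a ratio of -0.04 (-0.29 to 0.20), 0.64 (0.57 to 0.71) and 0.70 (0.62 to 0.77) over the same classes. The erasers kept their sides throughout, with Alkbh1 at -0.43, -0.53 and -0.33 and Alkbh3 at 0.27, 0.29 and 0.55, although the interval of Alkbh3 spanned 0 in the shallowest class.

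**Figure D2:**
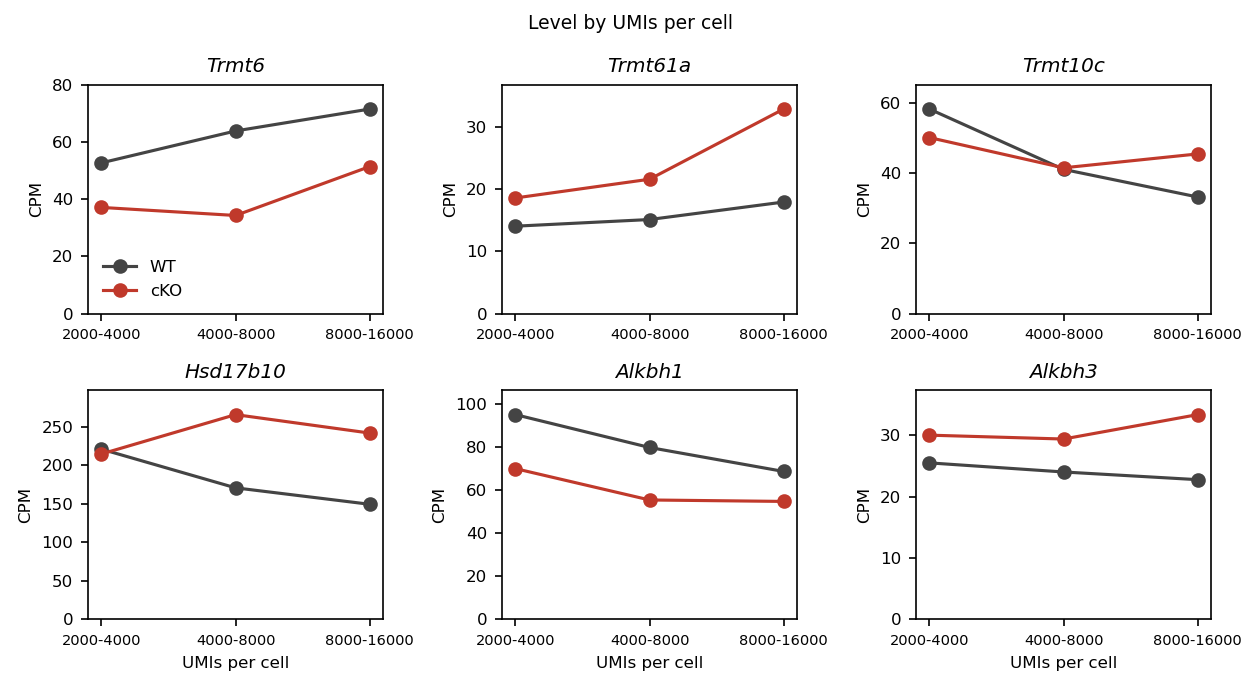
CPM of each gene (vertical axes, from 0) in cells of 2000 to 4000, 4000 to 8000 and 8000 to 16000 UMIs (horizontal axes), in WT (grey) and cKO (red). Trmt6 and Alkbh1 lie lower and Trmt61a and Alkbh3 higher in cKO in every class, while the lines of Trmt10c and of Hsd17b10 cross.

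The quotient of the subunits was also taken by depth class. Trmt61a UMIs per Trmt6 UMI were 0.266, 0.236 and 0.250 in WT from the shallowest to the deepest class, and 0.5, 0.629 and 0.639 in cKO. The log2 differences were 0.93 (-0.05 to 1.91), 1.41 (1.13 to 1.69) and 1.35 (1.11 to 1.59), and the first interval rests on 13 Trmt61a UMIs in cKO.

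**Figure D3:**
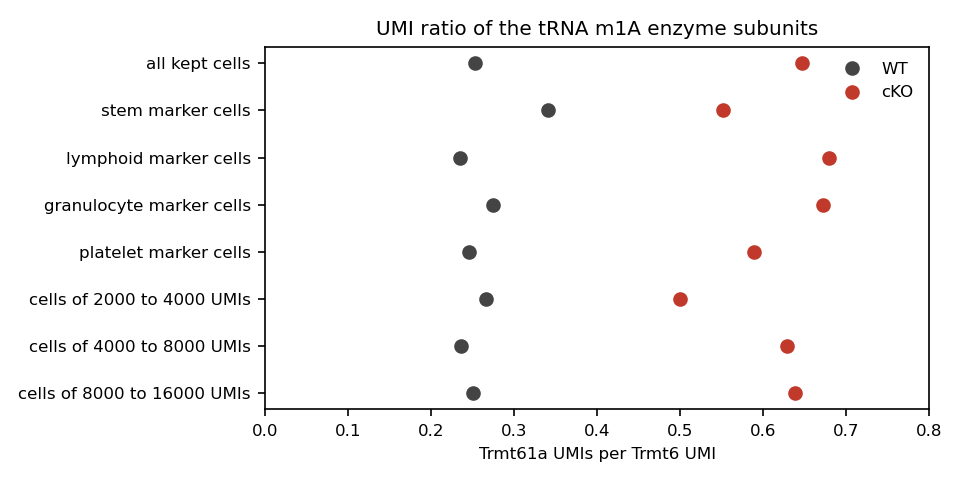
Trmt61a UMIs per Trmt6 UMI (horizontal axis) in WT (grey) and cKO (red) over all kept cells, the marker groups and the depth classes. Each WT point lies at or below 0.341 and each cKO point at or above 0.5.

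Cells were then grouped by marker genes after each had been thinned at random to 2000 UMIs. A cell joined the stem, lymphoid or platelet group with 2 or more of that list's 8 markers and the granulocyte group with 4 or more, and cells that met several rules were set aside. In WT, 518 cells were stem, 1581 lymphoid, 978 granulocyte and 295 platelet marker cells, and in cKO 947, 297, 60 and 70. The groups' own lists were raised in them: the stem markers, such as Procr, Hlf and Mecom, summed to 1033 CPM in WT stem cells and 717 CPM in cKO stem cells, and the platelet markers to 3549 and 986 CPM in platelet cells, with Gp6 at 0 in both libraries. The groups are ranges of marker number and not sharp types, since 1887 WT and 2337 cKO cells had 1 stem marker. Stem cells also differed in what else they carried: granulocyte markers summed to 1569 CPM in WT and 565 CPM in cKO stem cells, and erythroid markers to 44.9 and 451 CPM. The part of these differences in the stem ratios was not tested.

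The choice of cells depends on the random thinning, and other draws gave other cells. The values that follow come from 1 draw, and each ratio described is set beside its range over 20 draws, that draw included, or the number of draws in which its interval lay off 0, checks added after the data were seen. The draw in use gave the lowest Trmt61a ratio of all 20 in stem and in lymphoid cells and the lowest Alkbh1 ratio in lymphoid cells.

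In stem marker cells, Trmt6 stood at 51.7 CPM (91 UMIs) in WT against 40.6 CPM (308 UMIs) in cKO, giving a log2 ratio of -0.36 (-0.69 to 0.00) that ranged from -0.70 to -0.26 over the draws. It was -0.98 in stem cells of 4000 to 8000 UMIs and -0.89 when 1 more stem marker was needed. Trmt61a stood at 17.6 CPM (31 UMIs) and 22.4 CPM (170 UMIs), a ratio of 0.33 (-0.21 to 0.95) that ranged from 0.33 to 1.90, and its interval lay above 0 in 16 of 20 draws, while 1 more marker gave 1.70. Alkbh1 stood at 83.0 and 53.2 CPM, and its ratio of -0.64 (-0.92 to -0.36) ranged from -0.90 to -0.53, with an interval below 0 in 20 of 20 draws, but it was -0.11 when 1 more stem marker was needed. Trmt10c had a ratio of -0.60 (-0.93 to -0.25) that ranged from -0.75 to -0.25, with an interval below 0 in 19 of 20 draws, but of -0.09 in stem cells of 4000 to 8000 UMIs. Hsd17b10 stood at 240.0 and 268 CPM, a ratio of 0.16 (0.01 to 0.32) that ranged from 0.08 to 0.25, with an interval above 0 in 13 draws, and it was 0.68 in cells of 4000 to 8000 UMIs. The ratio of Alkbh3 was 0.37 (-0.07 to 0.87), ranged from 0.16 to 1.21 and had an interval above 0 in 10 draws, and 1 more marker gave 1.72.

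In lymphoid marker cells, defined by genes such as Dntt, Flt3 and Wfdc17, Trmt61a stood at 13.5 CPM in WT against 31.9 CPM in cKO. Its log2 ratio of 1.24 (0.80 to 1.68) ranged from 1.24 to 1.69 over the draws, and its interval lay above 0 in every one. Alkbh1 stood at 91.0 and 59.4 CPM, with a ratio of -0.61 (-0.87 to -0.36) that ranged from -0.61 to -0.33. These were the lymphoid differences that no draw moved to the other side of 0 or into its counting error. Trmt6 had a ratio of -0.29 (-0.59 to -0.00) that ranged from -0.62 to -0.08, with an interval below 0 in 11 of 20 draws. The lymphoid ratio of Alkbh3, 0.58 (0.16 to 0.98), ranged from 0.09 to 0.58 and had an interval above 0 in 8 draws, and that of Hsd17b10, 0.16 (0.02 to 0.30), ranged from 0.07 to 0.25 with an interval above 0 in 11. Their directions also turned: needing 1 more marker gave 0.33 for Trmt6 and -0.02 for Hsd17b10, and lymphoid cells of 4000 to 8000 UMIs gave -0.33 for Alkbh3. The Trmt6 ratio in that depth range was -0.68, on the same side of 0 as before and further from it. The lymphoid list was 1415 CPM in these cKO cells and 2360 CPM in WT. Its highest gene in WT, Wfdc17, stood at 869.6 CPM against 24.2 CPM in cKO, whereas Dntt stood at 785 and 834 CPM. B-cell markers were at 706 CPM in cKO against 113 CPM in WT, so the group was not made up alike, and the part of this in the ratios was not tested.

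The granulocyte and platelet groups were small in cKO, and their intervals were wide. In granulocyte marker cells, which carry genes such as Mpo and Elane, Trmt61a stood at 19.6 CPM in WT against 39.8 CPM in cKO, giving a log2 ratio of 1.04 (0.47 to 1.54) that ranged from 0.22 to 1.15 over the draws and was 0.37 when 1 more marker was needed. Hsd17b10 stood at 144 and 189 CPM, a ratio of 0.40 (0.16 to 0.62) that ranged from 0.24 to 0.58, with an interval above 0 in 18 of 20 draws. The granulocyte list summed to 21362 CPM in WT and 11108 CPM in cKO granulocyte cells, neutrophil markers to 7153 and 26.9 CPM, and mast cell or basophil markers to 371 and 862 CPM, and the part of these differences was not tested. In platelet marker cells Alkbh3 stood at 20.7 and 37.0 CPM, a ratio of 0.84 (0.03 to 1.64) that ranged from 0.00 to 1.20 and was 2.21 with 1 more marker. No platelet ratio of the 6 genes had an interval off 0 in more than 9 of 20 draws. Ratios of 0.5 or more occurred for 0 of 6 genes in stem cells, and for 2 each in lymphoid, granulocyte and platelet cells, where 10.4%, 11.6%, 17.6% and 17.4% of all genes reached them. Ratios of -0.5 or less occurred for 2, 1, 0 and 0, against 26.1%, 23.4%, 16.3% and 24.3%. Over the draws, the number of genes at 0.5 or more ran from 0 to 2 in stem, granulocyte and platelet cells and from 1 to 2 in lymphoid cells, and the number at -0.5 or less from 1 to 3 in stem cells and from 0 to 1 in each other group.

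**Figure D4:**
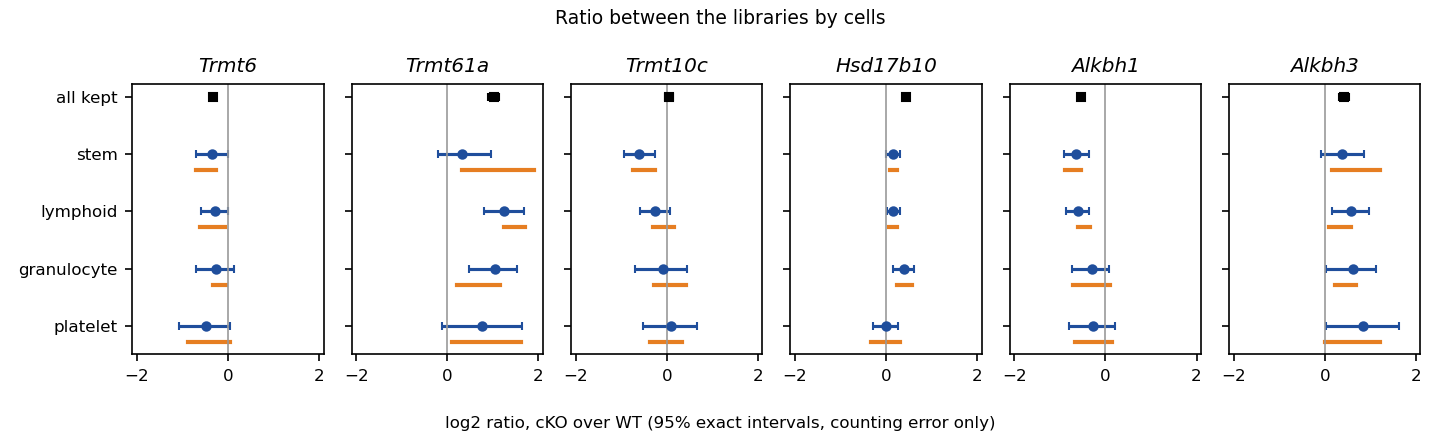
The log2 ratio of cKO over WT (horizontal axes) for each gene over all kept cells (black squares) and in the marker groups (blue points, 95% exact intervals of the draw in use), with orange lines for the range over 20 draws of the thinning. The points and orange lines of Trmt61a lie above 0 throughout, with blue intervals that cross 0 in stem and platelet cells, and the orange lines of Trmt10c, Hsd17b10, Alkbh1 and Trmt6 reach across 0 in some groups.

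The differences in ratio between marker groups were set out for 6 genes and all pairs of groups, 36 in number. In the draw in use 3 had intervals off 0, over the draws 23 did at least once, and 0 did in all 20. The Trmt61a ratio was lower in stem than in lymphoid cells by a difference of -0.91 (-1.60 to -0.22), yet this difference ran from -0.99 to 0.48 over the draws, with an interval off 0 in 7 of 20. The Trmt10c difference between stem and platelet cells was -0.69, ran from -0.79 to -0.03 and was off 0 in 7 draws, and the Hsd17b10 difference between granulocyte and platelet cells was 0.40, ran from -0.02 to 0.66 and was off 0 in 9. The difference off 0 most often was that of Trmt10c between stem and granulocyte cells, at -0.51 in the draw in use and from -1.04 to -0.28 over the draws, off 0 in 12. The quotient of Trmt61a to Trmt6 was above its WT value in each group and each draw, by 0.68 to 2.36 on the log2 scale in stem, 1.42 to 2.04 in lymphoid, 0.42 to 1.30 in granulocyte and 0.30 to 1.89 in platelet cells. So was the quotient of Alkbh3 to Alkbh1, whose lowest difference over groups and draws was 0.28. The draws reuse the same cells and are not replicates. In the draw in use, the Trmt61a to Trmt6 difference was 0.68 (0.04 to 1.33) in stem and 1.53 (1.02 to 2.04) in lymphoid cells. It was 1.30 (0.66 to 1.94) in granulocyte and 1.26 (0.29 to 2.22) in platelet cells. The smallest counts behind the stem and platelet values were 31 and 23 UMIs. The quotient of Hsd17b10 to Trmt10c differed by 0.37 to 0.94 over the draws in stem cells, while its difference took both signs in lymphoid (-0.04 to 0.41), granulocyte (-0.19 to 0.67) and platelet cells (-0.31 to 0.45).

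Within WT, the mitochondrial genes differed most clearly between groups. Hsd17b10 was highest in stem cells at 240.0 CPM, then 225 CPM in platelet, 188 CPM in lymphoid and 144 CPM in granulocyte cells, and the first pair did not differ beyond counting error. Trmt10c followed with 56.9 CPM in stem, 49.9 CPM in platelet, 44.7 CPM in lymphoid and 34.7 CPM in granulocyte cells, of which only the last step exceeded counting error. Granulocyte cells had the lowest level of both genes in 20 of 20 draws. They were also the deepest, with a median of 9041.5 UMIs against 2983 in WT stem cells, and the part of depth was not tested.

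Trmt6 had another order in WT, with 72.8 CPM in platelet, 71.5 CPM in granulocyte, 57.5 CPM in lymphoid and 51.7 CPM in stem cells. The platelet and granulocyte levels did not differ beyond counting error, nor did the lymphoid and stem levels, and stem cells were lowest in 16 of 20 draws. The Trmt6 level of WT stem cells over other WT cells was -0.30 on the log2 scale, but 0.08 when 1 more stem marker was needed. Median depth was 2983 UMIs in WT stem, 3829 in lymphoid, 4382 in platelet and 9041.5 in granulocyte cells. Over the depth classes, the WT level of Trmt6 was 52.8, 64.0 and 71.7 CPM from the shallowest to the deepest. The part of depth in the order of the groups was not tested. In cKO stem cells had the lowest Trmt6 level in 19 of 20 draws, at 40.6 CPM in the draw in use, and the lowest Trmt61a level in as many, at 22.4 CPM. Neither level differed from that of the next group beyond counting error in the draw in use. Lymphoid over stem cells was 0.21 (-0.10 to 0.51) on the log2 scale for Trmt6, and platelet over stem cells 0.47 (-0.26 to 1.07) for Trmt61a. The cKO stem cells were also the shallowest of these groups, with a median of 7576 UMIs, and the part of depth was not tested. For Trmt61a in WT, Alkbh1 in WT and Alkbh3 in both libraries, no neighbours in the order differed beyond counting error, and the highest group changed between draws. In the draw in use, WT Trmt61a was higher in granulocyte (highest) than in lymphoid cells (lowest) by 0.53 (0.17 to 0.91) on the log2 scale. WT Alkbh1 was higher in lymphoid (highest) than in granulocyte cells (lowest) by 0.30 (0.14 to 0.46). These pairs were picked by the same values, which the intervals do not allow for, so they do not test a difference. For Trmt61a, granulocyte cells were highest in 5 of 20 draws and lymphoid cells lowest in 8. For Alkbh1, lymphoid cells were highest in 11 and granulocyte cells lowest in 17. The part of depth was not tested here either.

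**Figure D5:**
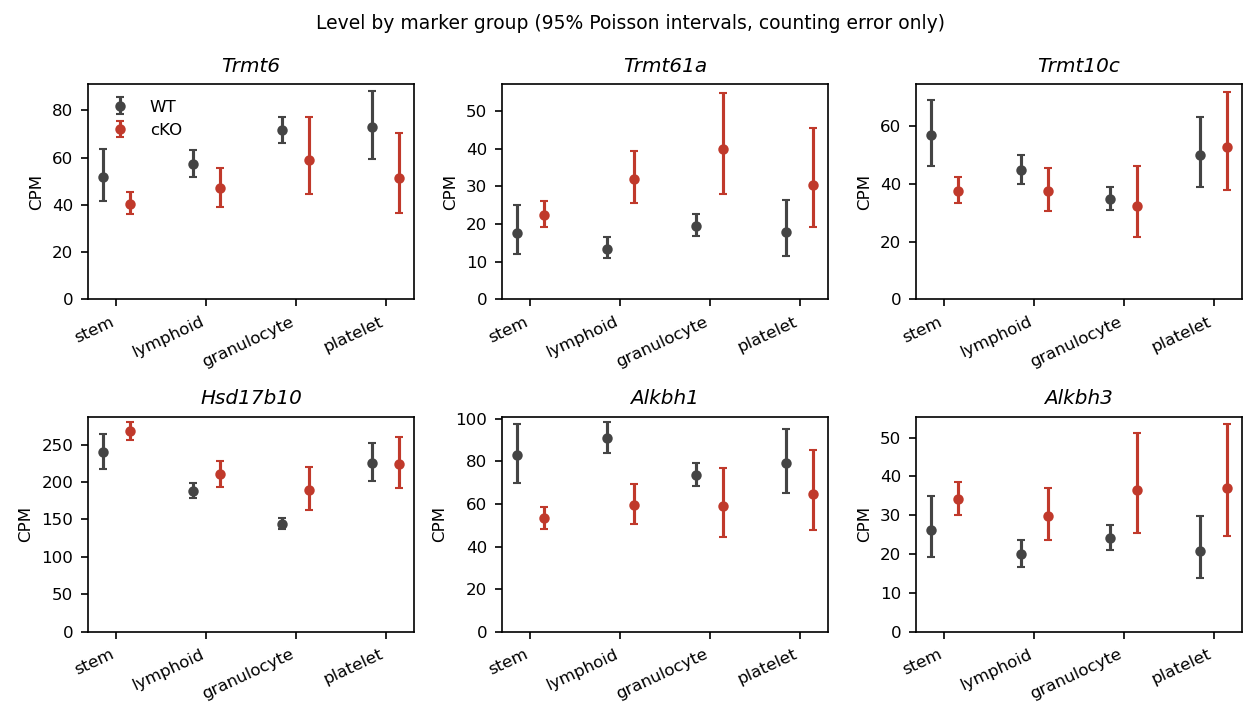
CPM of each gene (vertical axes, from 0) in stem, lymphoid, granulocyte and platelet marker cells of WT (grey) and cKO (red) in the draw in use, with bars for the 95% Poisson interval. Hsd17b10 and Trmt10c fall from stem to granulocyte cells in WT, and the cKO points of granulocyte and platelet cells carry the widest bars.

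Cells were also split by 10 mitotic markers, such as Mki67 and Top2a. Cells with 3 or more numbered 2080 in WT and 1748 in cKO, and cells with none 3522 and 3897. Trmt10c stood at 35.7 CPM in WT against 42.3 CPM in cKO in mitotic cells, and at 51.7 and 44.9 CPM in cells with no mitotic marker. Its ratio was 0.24 (0.09 to 0.40) in the first and -0.20 (-0.33 to -0.07) in the second, and the difference ranged from 0.32 to 0.49 over 20 draws, off 0 in each. In cells of 4000 to 8000 UMIs, however, its ratio was -0.03 in mitotic cells and -0.07 in cells with no mitotic marker. Trmt61a had ratios of 1.16 (1 to 1.28 over the draws) and 1.02 (0.88 to 1.11) in these classes over all depths and 0.35 and 0.47 within 4000 to 8000 UMIs. Alkbh1 had -0.42 (-0.54 to -0.42 over the draws) and -0.68 (-0.71 to -0.60) over all depths against -0.07 and -0.71 within that range. Trmt6 had -0.16 (-0.26 to -0.08 over the draws) and -0.43 (-0.52 to -0.37) against -0.39 and -1.10. The part of depth in these values was not tested.

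Within each library, mitotic cells were also the deeper ones, with a mean of 7097 UMIs against 3822 in WT and 12307 against 9044 in cKO. Hsd17b10 was lower in mitotic cells than in cells with no mitotic marker, by -0.51 (-0.59 to -0.43) on the log2 scale in WT and -0.40 (-0.45 to -0.35) in cKO. Its interval lay below 0 in 20 of 20 draws in both libraries, and in cells of 4000 to 8000 UMIs the differences were -0.31 and -0.60. Trmt10c was lower in mitotic cells by -0.53 (-0.70 to -0.37) in WT, below 0 in 20 of 20 draws, but in cells of 4000 to 8000 UMIs its difference of -0.13 (-0.40 to 0.14) spanned 0. In cKO the Trmt10c difference of -0.09 (-0.21 to 0.03) spanned 0. Trmt6 was higher in mitotic cKO cells by 0.25 (0.14 to 0.36), above 0 in 19 of 20 draws, and within 4000 to 8000 UMIs the difference of 0.38 (-0.11 to 0.81) spanned 0. In WT its difference was -0.01 (-0.15 to 0.13) over all depths and -0.33 (-0.55 to -0.12) within that range.

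After thinning, most cells showed no UMI of any given member. With each cell at 2000 UMIs, Trmt6 was seen in 11% of 7947 WT cells (Clopper-Pearson interval 10.3 to 11.7) and 9.02% of 8380 cKO cells (8.42 to 9.66), and Trmt61a in 2.96% (2.60 to 3.35) and 5.60% (5.11 to 6.11). Without thinning the shares were 25% and 36.5% for Trmt6 and 7.40% and 25.9% for Trmt61a, so the order of the libraries for Trmt6 turned with depth. Unthinned, Hsd17b10 was seen in 55.7% of WT and 86.6% of cKO cells. Alkbh1 was seen in 15% and 11% of thinned cells, Alkbh3 in 4.69% and 6.63%, Trmt10c in 9.49% and 8.47%, and Hsd17b10 in 31.2% and 37.7%. These genes are expressed in most cell types, so no cell type was at hand to give the share that free RNA alone would yield. Trmt6 and Trmt61a were seen together in 32 thinned WT cells and 48 thinned cKO cells, where the product of their shares gave 25.9 and 42.3.

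Other enzymes, readers and partners of m1A and related marks, 16 genes in all, stayed within a log2 ratio of 0.5 in both directions, where 8.86% of all genes were higher and 17.7% lower by that much or more. Of them, 6 had ratios above 0 and 10 below, where 5234 of all 9154 genes lay below, with a median of -0.17 against -0.07 over all genes. The highest were Rrp8, a nucleolar methyltransferase that places m1A on ribosomal RNA, at 0.36 (0.27 to 0.45), and the DNA repair dioxygenase Alkbh2 at 0.26 (0.11 to 0.40). The lowest were the reader Ythdc1 at -0.43 (-0.47 to -0.38) and 1110008L16Rik, the gene of the nuclease PRORP that works with TRMT10C and HSD17B10, at -0.41 (-0.55 to -0.27). Each of the 4 was thus nearer to 0 than Trmt61a and Alkbh1. The mitochondrial mRNA mt-Nd5, a known m1A carrier, stood at 216 CPM in WT against 121 CPM in cKO, giving a log2 ratio of -0.84 (-0.88 to -0.80), and at -0.83 when both libraries had the same limit on mitochondrial UMIs. Mitochondrial UMIs as a whole made up 2.37% of the kept UMIs in WT and 1.85% in cKO. No other mitochondrial mRNA was set beside mt-Nd5, so its ratio cannot be read as particular to that gene.

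Across the 8 sums of marker groups and libraries, genes with a pattern like that of Trmt6 included A430005L14Rik (Pearson's r = 0.969) and Tuba1c (r = 0.961), and those most like Trmt61a were Cct2 (r = 0.976), Gtpbp4 (r = 0.972) and Emg1 (r = 0.968). These describe 8 points from 2 libraries that share depth and composition, and Trmt6 and Trmt61a themselves had r = -0.28 over the same points.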

How the data were processed

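Sorted LSK cells were measured in 1 WT and 1 cKO library, assigned by their labelled genotype. The files deposited by the authors are count matrices (UMI counts of genes in cell barcodes), produced with Cell Ranger 6.0.0 against GRCm38 (mm10). The labels and the methods name different versions of the 3′ kit. Kept cells had over 200 genes, under 4000 (WT) or 4500 (cKO) genes, under 10% (WT) or 5% (cKO) mitochondrial UMIs and under 5% hemoglobin UMIs, after the limits of the study. Doublets were taken as the cells with the most simulated doublets among 50 neighbours in 20 components, at 0.8% per 1000 barcodes, which removed 611 WT and 666 cKO cells. CPM were computed from summed counts. For log2 ratios, 0.5 counts were added to each library and cKO was divided by WT, with exact Poisson and conditional binomial intervals (scipy 1.17.1). The ratio intervals were tested on simulated Poisson counts, the model they assume, so that test does not cover differences between cells or libraries. Intervals of quotients and of differences of ratios used the normal approximation. For grouping, cells were thinned to 2000 UMIs, leaving out 205 WT and 105 cKO cells below that. The alternatives were other scalings (TMM of edgeR 4.0.16), filters, thinning, depth classes and marker rules. Named genes are the 7 members, the 2 highest and 2 lowest of the 16 related genes, and the 3 genes most correlated with Trmt6 and Trmt61a at 20 CPM or more, of which 1 is not reported here. Members and lists were chosen with earlier results of these data known. Trmt61b and mt-Rnr2 were not analysed here.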

Additional observations from a re-analysis of the deposited data

Results flagged for a closer look

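Trmt10c had ratios on opposite sides of 0 in cells split by mitotic markers: the log2 ratio of cKO over WT was 0.2442 in cells with 3 or more markers and -0.2037 in cells with none. The difference between them was off 0 in 20 of 20 draws of the thinning by counting error alone, with no test over samples. In cells of 4000 to 8000 UMIs the values were -0.03 and -0.07, on the same side of 0.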

How the results depend on the processing

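Over all kept cells and their depth classes, Trmt6, Trmt61a, Alkbh1 and Alkbh3 kept their direction under every alternative run, and Trmt10c did not. Hsd17b10 kept its direction except in cells of 2000 to 4000 UMIs, where its log2 ratio was -0.04 (-0.29 to 0.20). With TMM scaling the log2 ratios were -0.24 (Trmt6), 0.15 (Trmt10c), 0.54 (Hsd17b10) and -0.44 (Alkbh1), with median-of-ratios scaling -0.26 (Trmt6), 0.51 (Hsd17b10) and -0.47 (Alkbh1), and with totals without mitochondrial and ribosomal protein genes -0.25 (Trmt6), 0.14 (Trmt10c), 0.52 (Hsd17b10) and -0.45 (Alkbh1). Each cell scaled before averaging gave -0.16 (Trmt10c), 0.35 (Hsd17b10) and -0.62 (Alkbh1), thinning -0.18 (Trmt10c) and 0.35 (Hsd17b10), and the same mix of marker groups -0.0381 (Trmt10c) and 0.37 (Hsd17b10). In cells of 4000 to 8000 UMIs the ratios were -0.90 (Trmt6), 0.51 (Trmt61a), 0.64 (Hsd17b10) and 0.29 (Alkbh3). The number of members higher by 0.5 or more was 3 with TMM scaling (12.6% of all genes) and without mitochondrial and ribosomal protein genes (12%), and 2 with median-of-ratios scaling (11.4%), in the depth window (13%) and after thinning (8.46%). The number lower by as much was 0 under the 3 scalings (13.2%, 13.8% and 14.5% of all genes in that order) and 2 in the depth window (13.6%).

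In marker groups, among values whose interval excluded 0, needing 1 more marker turned the Trmt6 (0.33) and Hsd17b10 (-0.0216) ratios of lymphoid cells and the Trmt6 level of WT stem cells over other WT cells (0.0805). The depth window turned the Alkbh3 ratio of lymphoid (-0.33) and granulocyte cells (-0.46, on 4 cKO cells), the Trmt10c ratio of mitotic cells (-0.0313) and the Alkbh3 level of mitotic cKO cells over those with no marker (-0.13). Other draws of the thinning turned the difference of the Trmt61a ratio between stem and lymphoid cells (0.48) and of the Hsd17b10 ratio between granulocyte and platelet cells (-0.0169). Values with intervals that spanned 0 changed sign more often: 1 more marker gave 0.40 for the platelet ratio of Trmt6 and -1.24 for the Trmt61a level of WT stem cells over other WT cells, and the depth window gave -0.53 and 0.49 for the platelet ratios of Trmt61a and Alkbh1. The causes were not tested. Over the draws of the thinning, the Trmt61a ratio of stem cells ran from 0.33 to 1.90. No paired analysis was possible because each genotype has 1 library and the labels give no replicate numbers. Counts in the granulocyte and platelet groups of cKO, as few as 23 UMIs per gene, limit what those groups can show.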
